A study of Mus musculus with 16 samples.

Results

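The EGF family ligands and the ErbB receptors were followed in sorted cells of the mouse colon. The members are 10 genes chosen by name, out of 45513 in the count files: the ligand genes Egf, Ereg, Areg, Btc, Tgfa, Hbegf and Epgn and the receptor genes Egfr, Erbb2 and Erbb3. All 10 were found, and 9 of them had enough counts to be tested. Epgn was left out by the filter on low counts and is described by its counts only.

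RNA was sequenced from 16 samples of 8 mice, each colon giving a tdTom+ and a tdTom- sample of live EpCAM+ epithelial cells, so that n = 8 in both groups. All mice were Atoh1(WT)CreERT2; R26RtdTom animals on C57BL/6, males and females aged 8 to 16 weeks, homozygous for the Atoh1 allele and carrying 1 copy of the reporter. Both groups therefore share every allele and the tamoxifen, which the labels and the study's account of its secretory signature give as 1 mg per day on 3 days; a general passage on RNA sequencing gives 3 mg with collection after 24 h. CreERT2 sits downstream of the Atoh1 coding sequence, so the tdTom label marks cells that made Atoh1, the secretory lineage transcription factor, and the daughters of such cells. The tdTom- group is the rest of the EpCAM+ epithelium and not a pure cell type. Small intestinal samples were not analysed here.

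ErbB receptors are receptor tyrosine kinases that pair when a ligand binds. EGF, TGF-alpha, amphiregulin and epigen bind EGFR, while betacellulin, HB-EGF and epiregulin can also bind ErbB4, and the neuregulins bind ErbB3 or ErbB4. ErbB2 has no ligand of its own and acts as a partner, and ErbB3 has little kinase activity. The ligands are made as membrane proteins that proteases of the ADAM family cut free. In the intestinal crypt EGF signals drive stem cells and their daughters to divide, and secretory cells (Paneth cells in the small intestine, deep crypt secretory cells in the colon) are known as one of their sources. The comparison addresses which of these transcripts the secretory cells carry and which the rest of the epithelium carries.

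Total counts ran from 16482530 to 24218367 in tdTom+ and from 18318172 to 45791503 in tdTom- samples, and the tdTom- library of mouse 4 was by far the deepest. The smallest level that could be seen, taken as 3 counts, was 0.124 to 0.182 CPM (read counts scaled to a common library size) in tdTom+ and 0.0655 to 0.164 CPM in tdTom- samples, for counting error only. Levels and the log2 differences within mice below are CPM scaled by TMM factors, and a gene was called when edgeR's quasi-likelihood test gave a Benjamini-Hochberg adjusted p under 0.01 over the 15841 genes tested. Atoh1, whose locus drives the label, had a log2 fold change of 4.54. All 8 goblet markers were higher in tdTom+ cells (log2 fold changes of 3.56 for Zg16 to 5.03 for Spink4), as were all 4 deep crypt secretory markers (2.52 for Dll4 to 4.14 for Reg4). All 8 absorptive markers (-5.18 for Aqp8 to -3.30 for Krt20), all 8 enteroendocrine markers (-3.56 for Tph1 to -0.84 for Gcg) and 5 of 7 tuft markers tested (of 8) were lower. By these markers goblet and deep crypt secretory RNA was higher in tdTom+ cells, and enteroendocrine RNA was higher in tdTom- cells although that lineage is secretory. The study itself saw no tdTom in ChgA+ enteroendocrine cells or Dclk1+ tuft cells 24 h after a single tamoxifen pulse. At a later time it found ChgA+ cells with tdTom.

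Of the 9 members tested, 3 were higher in tdTom+ cells (Egf, Btc and Egfr) and 5 were lower (Ereg, Areg, Hbegf, Erbb2 and Erbb3), while Tgfa was not called. The background to these counts is wide, since 25.5% of all genes tested were called higher and 25.5% lower, 51.0% together. With the mouse as a replicate block (the paired fit) the members again gave 3 higher and 5 lower, beside 28.4% and 28.9% of all genes, 57.2% together. Of the members, 5 were called with a log2 fold change over 1 in size (Egf, Ereg, Areg, Hbegf and Erbb2), against 16.7% of all genes tested. The CPM ranges of the populations did not overlap for 7 of the 9, the exceptions being Tgfa and Egfr, against 30.5% of all genes tested. Every called member moved the same way in 8 of 8 mice. Standard errors and p-values of single members below are from the fit without the replicate block, unless stated. With the block the standard error was 0.06 for Areg and 0.05 for Hbegf, against 0.27 and 0.25 without it. These samples are pools of cells, so fewer cells of a type and less RNA per cell cannot be told apart.

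**Figure D1:**
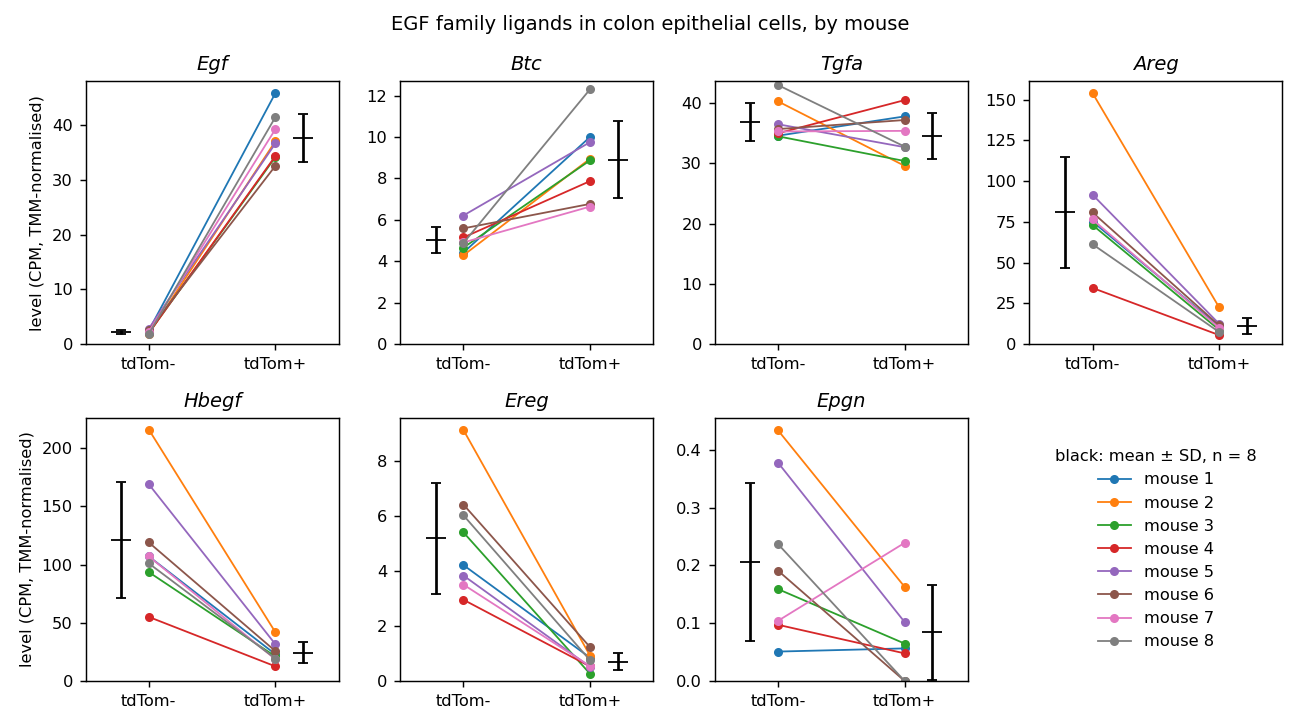
Levels of the EGF family ligand genes in CPM (linear axes starting at 0) in the tdTom- and tdTom+ cells of 8 mice; lines join the samples of a mouse and black bars give the mean ± SD. Egf and Btc rise to the right in every mouse, Areg, Hbegf and Ereg fall in every mouse, and Tgfa lines cross.

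Egf (ENSMUSG00000028017; GRCm38 chr3:129677565-129755316, minus strand), the founding ligand of the family, had the largest fold change of the members. In tdTom+ cells it ran from 32.6 to 45.9 CPM with a median of 36.9, on 528 to 1049 counts per sample. In tdTom- cells it ran from 1.90 to 2.86 CPM with a median of 2.18, on 35 to 105 counts. The lowest tdTom+ sample was thus far above the highest tdTom- sample. The means were 37.7 ± 4.41 and 2.26 ± 0.346 CPM (SD, n = 8 mice), with a fitted difference of 16.8-fold (log2 fold change 4.07, standard error 0.10, adjusted p = 1.06e-16, edgeR). Only 0.568% of the genes tested had a log2 fold change at least as high. Within mice the log2 difference ran from 3.64 in mice 5 and 6 to 4.39 in mouse 8. Goblet and deep crypt secretory RNA moved with Egf, whose tdTom- mean was 5.99% of its tdTom+ mean. The same measure was 3.05% to 8.47% for the 8 goblet markers and 5.67% to 17.4% for the 4 deep crypt secretory markers. How far residual goblet or deep crypt secretory cells account for the tdTom- level of Egf was not tested. The genes whose log2 CPM profiles over the 16 samples lay closest to that of Egf were Bace2, an aspartyl protease, Creb3l4, a transcription factor of the endoplasmic reticulum membrane, and Rap1gap, a GTPase activator. Their root-mean-square distances were 0.188, 0.193 and 0.199 log2 units, against a median of 2.02 over all genes tested.

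Btc (ENSMUSG00000082361; chr5:91357261-91402994, minus strand) encodes betacellulin and was the other ligand higher in tdTom+ cells. It ran from 6.64 to 12.3 CPM in tdTom+ cells (median 8.91) and from 4.29 to 6.21 CPM in tdTom- cells (median 4.90). The ranges lay close to each other without overlapping. The means were 8.89 ± 1.86 and 5.01 ± 0.634 CPM (SD, n = 8), with a fitted difference of 1.78-fold (log2 fold change 0.83, standard error 0.12, adjusted p = 5.67e-06, edgeR). The size varied between mice, from a log2 difference of 0.27 in mouse 6 to 1.31 in mouse 8. The profiles nearest to Btc were those of Tmc6, Ammecr1 and Rbm43, at 0.175, 0.185 and 0.195 log2 units against a median of 0.524. Their log2 fold changes were 0.76, 0.74 and 0.66. Unlike Egf, Btc kept a sizeable level outside the labeled cells, its tdTom- mean being 56.4% of its tdTom+ mean.

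Areg (ENSMUSG00000029378; chr5:91139615-91148432, plus strand), which encodes amphiregulin, was lower in tdTom+ cells. It ran from 5.58 to 22.6 CPM in tdTom+ cells (median 10.5) and from 34.5 to 154 CPM in tdTom- cells (median 75.9). Samples spread widely within each population, yet the highest tdTom+ sample stayed below the lowest tdTom- sample. The means were 11.2 ± 5.12 and 80.9 ± 34.2 CPM (SD, n = 8), with a fitted difference of 7.26-fold (log2 fold change -2.86, standard error 0.27, adjusted p = 9.85e-09, edgeR). The difference within mice was much steadier than the levels, from -3.04 in mouse 3 to -2.61 in mouse 4.

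Hbegf (ENSMUSG00000024486; chr18:36504929-36515805, minus strand), which encodes heparin-binding EGF-like growth factor, followed the same pattern. It ran from 12.5 to 41.8 CPM in tdTom+ cells (median 22.0) and from 55.0 to 216 CPM in tdTom- cells (median 107). Again no tdTom+ sample reached the tdTom- range. The means were 24.1 ± 9.0 and 121 ± 49.6 CPM (SD, n = 8), with a fitted difference of 5.0-fold (log2 fold change -2.32, standard error 0.25, adjusted p = 5.91e-08, edgeR). Within mice the log2 difference ran from -2.52 in mouse 7 to -2.13 in mouse 4.

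Ereg (ENSMUSG00000029377; chr5:91074617-91093649, plus strand), which encodes epiregulin, had the fewest reads of the ligands tested, 1013 counts in all samples together, and was lower in tdTom+ cells. It ran from 0.259 to 1.23 CPM in tdTom+ cells (median 0.645), on 4 to 24 counts per sample, and from 2.95 to 9.12 CPM in tdTom- cells (median 4.81), on 67 to 168 counts. The ranges did not overlap, although the tdTom+ values rest on few reads. The means were 0.698 ± 0.303 and 5.18 ± 2.01 CPM (SD, n = 8), with a fitted difference of 7.24-fold (log2 fold change -2.86, standard error 0.27, adjusted p = 8.52e-09, edgeR). Mouse 3 had the widest log2 difference, -3.96, and mouse 1 the narrowest, -2.20. The tdTom+ mean was 13.8% of the tdTom- mean for Areg, 13.5% for Ereg and 19.9% for Hbegf, beside 2.77% to 10.1% for the 8 absorptive markers and 8.50% to 56.2% for the 8 enteroendocrine markers. The part that these cell types have in the lower levels was not tested.

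Tgfa (ENSMUSG00000029999; chr6:86195251-86275639, plus strand), which encodes TGF-alpha, was carried by both populations. It ran from 29.6 to 40.5 CPM in tdTom+ cells (median 34.1) and from 34.5 to 43.0 CPM in tdTom- cells (median 35.5). The ranges overlapped, and 4 mice were higher and 4 lower in tdTom+ cells. The means were 34.5 ± 3.82 and 36.8 ± 3.10 CPM (SD, n = 8), with a log2 fold change of -0.09 (standard error 0.07, adjusted p = 0.2609, edgeR). Epgn (ENSMUSG00000035020; chr5:91027464-91035215, plus strand), which encodes epigen, had 47 counts in all 16 samples together, 12 in tdTom+ and 35 in tdTom- cells. No tdTom+ sample had more than 4 counts and no tdTom- sample more than 8. At this depth Epgn could not be compared: fitted without the filter, its log2 fold change was -1.25 with an adjusted p of 0.095 (edgeR).

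**Figure D2:**
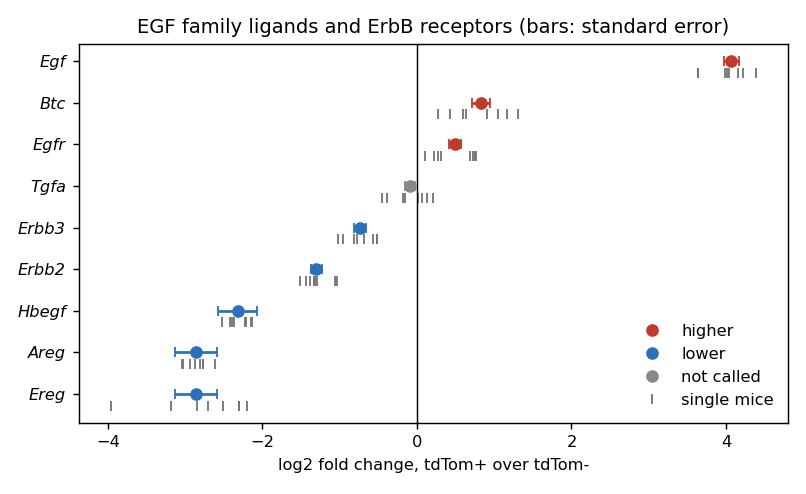
Log2 fold changes (tdTom+ over tdTom-) of the 9 members tested, as points with standard errors, and the log2 differences within each of the 8 mice as ticks below them. Egf stands at 4.07, Btc and Egfr lie between 0 and 1, Tgfa lies at -0.09, and the ticks of Areg and Hbegf span less than their standard error bars.

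Ereg, Areg, Btc and Epgn are neighbors on chromosome 5. The gaps are 39.4 kb from Epgn to Ereg, 46.0 kb from Ereg to Areg and 208.8 kb from Areg to Btc, and the whole stretch covers 375.5 kb. The only other annotated gene within it, Gm23092, had no counts. Within this stretch Ereg and Areg were lower in tdTom+ cells while Btc, on the opposite strand, was higher. Promoter sequence (RefSeq, GRCm38.p6, 250 bases before to 50 bases after the start) was at hand for 7 of the 10 members (all but Ereg, Hbegf and Erbb3), with 8 start sites, Egf having 2 of them. The windows were searched on both strands for an E-box of the letters CAGCTG, which basic helix-loop-helix factors such as ATOH1 can bind, for the AP-1 site TGANTCA, for the cyclic AMP response element TGACGTCA and for the TATA letters TATAAA. The 3 stretches below are shown because the Areg window held more matches than that of any other member. Capitals mark the match, and each is read 5′ to 3′ along the strand of the gene.
Areg, E-box, chr5:91139475-91139504, plus strand: ttcctcccgcgtCAGCTGggtttttggagt
Areg, cyclic AMP response element, chr5:91139527-91139556, plus strand: gggctggtccgTGACGTCAcgggcggtggc
Areg, TATA, chr5:91139556-91139585, plus strand: ctccagcgggtcTATAAAagcagcaggtgc

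The E-box letters thus stood 112 bases before the Areg start. Of 32851 promoters of the same length, 16.3% hold these letters. The response element and the TATA letters stood 61 and 31 bases before the Areg start, and 1.79% and 13.6% of the promoters hold them. The Epgn window held the TATA letters only. No match to any of the 4 motifs, including the AP-1 site that 7.81% of promoters hold, was found in the windows of Egf, Tgfa, Egfr and Erbb2.

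To compare the ligands with each other, CPM was divided by the gene length that the count files give. In tdTom- cells Areg came first with 67.5 ± 28.5 CPM per kb (SD, n = 8) and Hbegf followed with 51.0 ± 20.9 CPM per kb. Areg was above Hbegf in 8 of 8 mice although their ranges overlapped. Tgfa at 4.27, Btc at 1.74, Ereg at 1.25, Egf at 0.200 and Epgn at 0.117 CPM per kb came after them. The ranges of Btc and Ereg overlapped, as did those of Egf and Epgn. In tdTom+ cells Hbegf, at 10.2 ± 3.79 CPM per kb, and Areg, at 9.30 ± 4.27, were not separated, with Hbegf higher in 6 of 8 mice. Areg was above Tgfa in 7 of 8 mice, with overlapping ranges. Tgfa at 4.0 ± 0.442, Egf at 3.34 ± 0.391 and Btc at 3.09 ± 0.645 CPM per kb also overlapped as neighbors, though Tgfa was above Egf in 8 of 8 mice and Egf above Btc in 5 of 8. Ereg at 0.169 and Epgn at 0.0478 CPM per kb came last, below the range of Btc.

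As shares of the summed ligand level, Egf ran from 7.07% to 14.8% in tdTom+ and from 0.0737% to 0.308% in tdTom- samples, and Areg from 22.6% to 40.4% and from 49.0% to 56.7%. Neither pair of ranges overlapped. Areg and Hbegf made up 53.1% ± 3.23 and 40.2% ± 2.68 of the summed ligand level per kb in tdTom- cells, and Egf 0.178% ± 0.0638 (SD, n = 8). In tdTom+ cells the shares were 33.0% ± 4.42 for Hbegf, 29.8% ± 5.49 for Areg, 14.2% ± 4.37 for Tgfa, 11.6% ± 2.69 for Egf and 10.7% ± 3.13 for Btc. The summed ligand level itself was 30.1 ± 7.80 CPM per kb in tdTom+ and 126 ± 49.4 CPM per kb in tdTom- cells. The order depends on the division by length: without it Egf would come first of the ligands in tdTom+ cells, and Hbegf before Areg in tdTom- cells. For Egf the length in the files is 11275 bases, and for Areg 1199 bases.

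**Figure D3:**
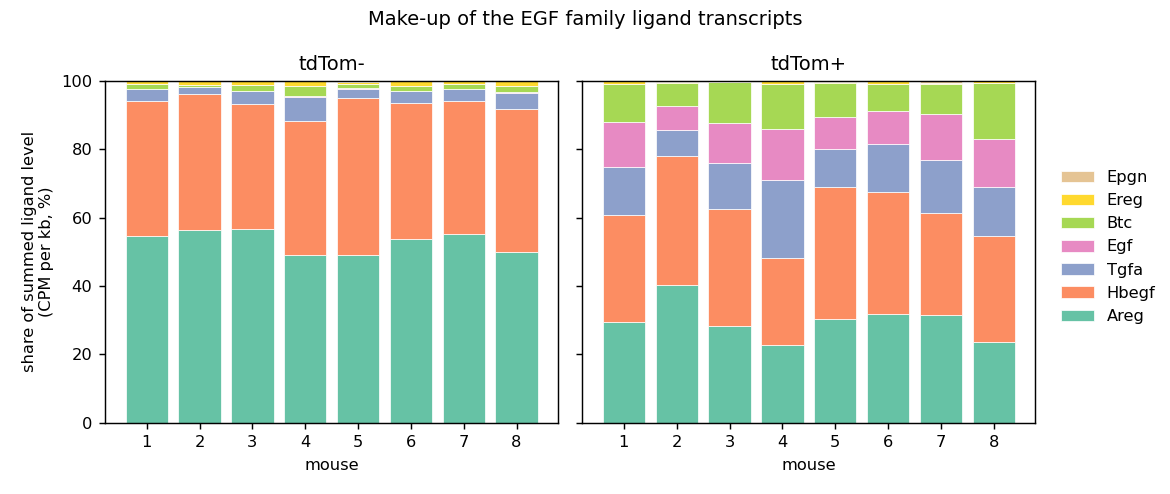
Share of each ligand in the summed ligand level (CPM per kb, in percent) in the tdTom- and tdTom+ cells of mice 1 to 8. Areg and Hbegf fill most of every tdTom- bar, and Egf and Btc form visible layers, each between 6.68% and 16.3%, in the tdTom+ bars.

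Areg and Hbegf varied between mice together with immediate early genes. The summed level of 15 immediate early and stress genes (Fos, Jun, Egr1, Atf3, Hspa1a and others) ran from 3193 to 7148 CPM in tdTom+ and from 3817 to 8754 CPM in tdTom- samples. Mouse 2 had the highest and mouse 4 the lowest sum, the highest and lowest Areg and the highest and lowest Hbegf, in both populations. In tdTom- cells the mice stood in the same order for the sum and for Areg, in 8 of 8 places, and no mouse moved by more than 1 place for Hbegf. In tdTom+ cells 5 of 8 mice had the same place for Areg and 4 of 8 for Hbegf. These are descriptions over 8 mice, and within a population the genes compared were read from the same sorted sample and library of each mouse. In tdTom- cells Egfr also kept the place of the sum in 4 of 8 mice, Ereg in 3, Btc in 2 and Egf in 1, but with places up to 5, 4, 7 and 6 apart. In tdTom+ cells Egfr kept it in 1 mouse, and Ereg, Btc and Egf in no mouse. Mouse 4 also had the lowest share of mitochondrial counts, 2.227% in tdTom+ and 3.742% in tdTom- cells, and the other mice had 4.292 to 6.922% and 6.047 to 9.969%.

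Between the populations the immediate early genes had smaller fold changes than Areg and Hbegf. Of the 15, 3 were called lower in tdTom+ cells (Klf6, Zfp36 and Ier3), beside 25.5% of all genes tested. The median log2 fold change of the 15 was -0.28, from -0.92 for Klf6 to 0.10 for Fosb. With the mouse as a replicate block, the paired fit, 13 were called lower, beside 28.9% of all genes tested. The log2 differences of Areg and Hbegf within mice had SDs of 0.15 and 0.14, while their log2 levels had SDs of 0.60 and 0.59 in tdTom- and 0.59 and 0.52 in tdTom+ samples. For Egf the SD was 0.26 for the difference and 0.21 and 0.16 for the levels. The part of cell isolation in the Areg and Hbegf levels was not tested. Without mouse 2 or without mouse 4 the calls of all 9 members tested were as with all 8 mice.

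**Figure D4:**
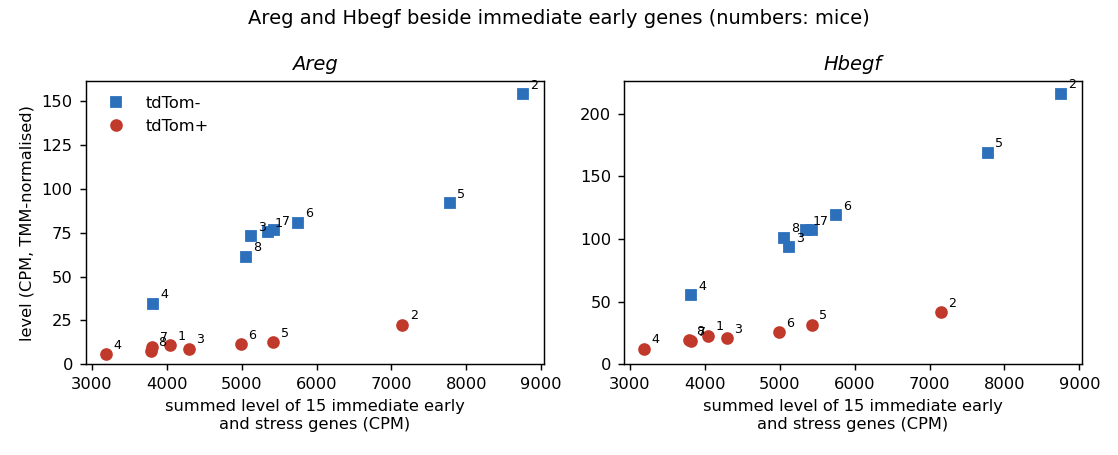
Levels of Areg and Hbegf (CPM, linear axis from 0) against the summed CPM of 15 immediate early and stress genes, 1 point per sample, with the mouse number beside it; squares are tdTom- and circles tdTom+ cells. Mouse 2 is farthest right and highest and mouse 4 farthest left and lowest in both populations, and at a like sum the tdTom- samples lie above the tdTom+ samples.

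Among the receptors, Egfr (ENSMUSG00000020122; chr11:16752203-16918158, plus strand) was higher in tdTom+ cells. It ran from 40.9 to 65.4 CPM in tdTom+ cells (median 52.8) and from 33.2 to 42.0 CPM in tdTom- cells (median 38.2). The ranges overlapped slightly. The means were 52.8 ± 7.79 and 37.6 ± 3.02 CPM (SD, n = 8), with a fitted difference of 1.40-fold (log2 fold change 0.49, standard error 0.08, adjusted p = 2.40e-05, edgeR). The log2 difference was smallest in mouse 3, at 0.10, and reached 0.76 in mouse 8. With mice 1 to 3 only, the first series of mouse numbers, Egfr was not called (0.40, adjusted p = 0.0487, edgeR), and with mice 5 to 8 only it was (0.51, adjusted p = 2.21e-04, edgeR). The nearest profiles, AU040320, Nucb1 and Antxr2, lay at 0.111, 0.114 and 0.117 log2 units, against a median of 0.395. Their log2 fold changes were 0.57, 0.53 and 0.36.

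Erbb2 (ENSMUSG00000062312; chr11:98412470-98437716, plus strand), the partner without a ligand, was lower in tdTom+ cells. It ran from 99.0 to 122 CPM in tdTom+ cells (median 113) and from 248 to 347 CPM in tdTom- cells (median 272). The populations were clearly apart. The means were 113 ± 8.0 and 279 ± 31.2 CPM (SD, n = 8), with a fitted difference of 2.46-fold (log2 fold change -1.30, standard error 0.07, adjusted p = 1.15e-12, edgeR). The log2 difference ran from -1.51 in mouse 2 to -1.04 in mouse 4. Mien1 overlaps Erbb2 on the opposite strand, and the counting used strand.

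Erbb3 (ENSMUSG00000018166; chr10:128567523-128589652, minus strand), a receptor for neuregulins, was also lower in tdTom+ cells. It ran from 205 to 253 CPM in tdTom+ cells (median 234) and from 343 to 498 CPM in tdTom- cells (median 361). These ranges did not overlap either. The means were 232 ± 15.7 and 387 ± 58.0 CPM (SD, n = 8), with a fitted difference of 1.67-fold (log2 fold change -0.74, standard error 0.08, adjusted p = 7.95e-08, edgeR). The log2 difference ran from -1.02 in mouse 2 to -0.52 in mice 1 and 4. Midn, Wipf2 and Tprn had the nearest profiles, at 0.0828, 0.0839 and 0.0975 log2 units against a median of 0.487. Their log2 fold changes were -0.70, -0.73 and -0.79.

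Per kb of gene length, Erbb3 came first in both populations, at 38.5 ± 2.61 CPM per kb in tdTom+ and 64.4 ± 9.65 in tdTom- cells (SD, n = 8). Erbb2 followed with 21.7 ± 1.54 and 53.5 ± 5.98 CPM per kb, and Egfr with 4.66 ± 0.688 and 3.32 ± 0.267. This order held in 8 of 8 mice in each population, and only the tdTom- ranges of Erbb3 and Erbb2 overlapped. Egfr made up 7.17% ± 0.796 of the summed receptor level in tdTom+ and 2.76% ± 0.190 in tdTom- cells. The sum of the receptors was 64.9 ± 4.23 CPM per kb in tdTom+ and 121 ± 15.4 CPM per kb in tdTom- cells.

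**Figure D5:**
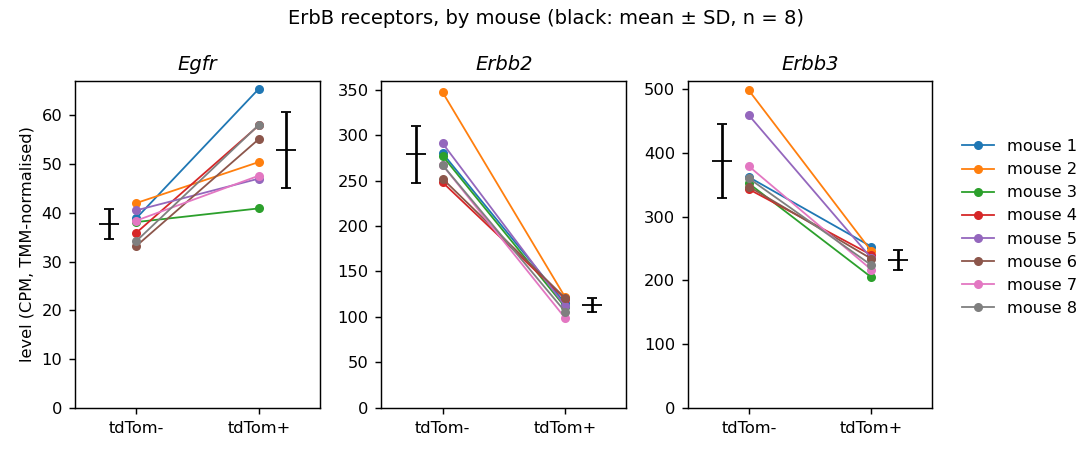
Levels of Egfr, Erbb2 and Erbb3 in CPM (linear axes starting at 0) in the tdTom- and tdTom+ cells of 8 mice, with lines joining the samples of a mouse and black bars for the mean ± SD. Egfr rises to the right in every mouse, least in mouse 3, while Erbb2 and Erbb3 fall in every mouse.

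Of the remaining genes of the family, Erbb4, Nrg1, Nrg2 and Nrg3 were near or below the limit of detection. Erbb4, the fourth ErbB receptor, had no counts in any of the 16 samples, which allows up to 0.0655 to 0.182 CPM at these depths. Nrg1 had 2 counts in tdTom+ and 23 in tdTom- cells, Nrg2 had 4 and 6, and Nrg3 had 1 and 2. Nrg4 alone was tested, with mean CPM values of 1.28 ± 0.254 in the labeled and 0.868 ± 0.215 in the unlabeled cells (SD, n = 8). All 8 mice had more of it in tdTom+ cells, but it did not pass the threshold (log2 fold change 0.55, standard error 0.18, adjusted p = 0.0101, edgeR). With the mouse as a replicate block it passed (0.56, adjusted p = 0.0079, edgeR), so the call rests on the model.

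Of 18 genes for the maturation and release of ligands, 15 were tested, and 6 were higher and 6 lower in tdTom+ cells. Of all genes tested, 25.5% were called higher and 25.5% lower. The median log2 fold change of the list was 0.12 against 0.00 over all genes tested. The sheddases Adam17, which cuts most of these ligands, and Adam10, which cuts Egf and Btc, were not called (0.12, adjusted p = 0.0522, and -0.09, adjusted p = 0.1604, edgeR). Among the other ADAM genes tested, Adam9 was higher (0.53), Adam15 was lower (-0.86) and Adam8 was not called (0.25). These were named after their values were seen. Rhbdl3, a rhomboid-like membrane protein, had a log2 fold change of 4.43, its mean CPM being 19.4 ± 3.22 in the labeled and 0.939 ± 0.468 in the unlabeled cells (SD, n = 8). The cargo receptors of the early secretory pathway Tmed2 (1.06) and Tmed10 (0.70) were also higher. The iRhom genes, whose proteins carry ADAM17 to the cell surface, went opposite ways: Rhbdf2 was higher (0.62) and Rhbdf1 lower (-0.66, named after its values were seen). Frmd8, an iRhom partner, was lower (-1.08), as were Cnih4 (-1.06), a cargo receptor, and the rhomboid genes Rhbdl2 (-0.97) and Rhbdl1 (-0.91). Rhbdl1 rests on few reads, 6 to 16 counts per tdTom+ sample, and its CPM ranges overlapped.

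Of 18 genes that restrain the receptors, all tested, 4 were higher and 7 lower, beside 25.5% of all genes tested in each direction. The median log2 fold change of the 18 was 0.00. The leucine-rich repeat inhibitors Lrig3 (log2 fold change 0.93) and Lrig1 (0.43) were higher in tdTom+ cells while Lrig2 (-0.70) was lower. Socs5, an adaptor that targets EGFR for degradation, had mean CPM values of 24.7 ± 1.64 in the labeled and 11.5 ± 1.34 in the unlabeled cells (SD, n = 8; log2 fold change 1.10), and the phosphatase gene Ptpn1 was higher as well (0.38). Sh3kbp1, which links CBL to receptor uptake, was lower (-1.64), as was Errfi1, a feedback inhibitor of the EGFR kinase, with mean CPM values of 66.1 ± 13.9 and 158 ± 49.3 (SD, n = 8; -1.25) and overlapping ranges. The ubiquitin ligase gene Cblc was lower too (-0.66).

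Of 32 genes that carry the signal inward, all tested, 10 were higher and 13 lower, beside 25.5% of all genes tested in each direction. The median log2 fold change of the 32 was -0.03, and their changes were mostly small. The largest increases were Nck1 (log2 fold change 0.39), an adaptor, Nras (0.38), Plcg1 (0.36) and Akt1 (0.35). The largest decreases were the exchange factor genes Vav2 (-1.49) and Vav3 (-0.86), the PI3 kinase subunit gene Pik3r1 (-0.59) and Grb7 (-0.53), an adaptor of ErbB2 and ErbB3.

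Markers of cells outside the epithelium were low. The summed level of 12 immune markers ran from 7.76 to 13.5 CPM in tdTom+ and from 12.0 to 39.5 CPM in tdTom- samples, and Cd3g and Cpa3 had no counts in tdTom+ samples. Of the 4 immune markers tested, 2 were lower in tdTom+ cells. The summed level of 12 stromal markers ran from 10.3 to 14.2 and from 16.7 to 24 CPM, with 3 of the 4 tested lower, and Lum had no counts in any sample. Immune and stromal cells are known to make Areg and Ereg, and their part in the lower tdTom+ levels of Areg, Ereg and Hbegf was not tested. Stem cell markers moved both ways (Sox9 and Rgmb higher, the other 4 lower), and 5 of 8 proliferation markers were lower in tdTom+ cells. Of 6 general epithelial markers, 1 was higher and 5 were lower, with a median log2 fold change of -0.49. Over all genes tested, 25.5% were called higher and 25.5% lower.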

How the data were processed

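The authors prepared stranded mRNA libraries from sorted colon cells, sequenced them with single-end reads of 50 bases, aligned the reads to GRCm38 with TopHat2 2.1.1 and counted them per gene with featureCounts (exons, reverse strand, primary alignments); the file headers give featureCounts 1.5.0, the processing notes Subread 1.5.2. The deposited values are raw counts per gene, not normalized. Symbols came from GENCODE M21.

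All 16 samples entered 1 fit in R 4.3.3 with edgeR 4.0.16 (TMM scaling after filterByExpr, then glmQLFit and glmQLFTest; two-sided, no mouse term, Benjamini-Hochberg adjusted p under 0.01). Log2 CPM used a prior count of 2. Standard errors of edgeR fold changes were derived as the size of the log2 fold change divided by the square root of the F statistic. The labels give both samples of a mouse the same number, and the deviations of the pair from the group means correlated across genes at 0.223 to 0.408 in all 8 mice, so the numbers pair the samples. Alternatives were the mouse as a block, DESeq2 1.42.0, limma-voom (limma 3.58.1), other scalings, filters, thresholds and subsets of mice. The fits were tested on simulated counts in which far fewer genes changed than were called in these data. Named genes were all members, neuregulins and Erbb4, up to 4 extremes in each direction of each pathway list, extremes of marker lists and nearest profiles. The members and lists were chosen with earlier results of these data known. Small intestinal and 9S/T-A samples were not analysed here, and a few withheld items are not reported here.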

Additional observations from a re-analysis of the deposited data

Results flagged for a closer look

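In tdTom- cells, Erbb2 stood apart in mouse 2, at a log2 CPM of 8.44 against 7.95 to 8.18 in the other 7 mice. This was the only one of 21 groups of 8 samples with a sample so far from the rest, and chance alone gives about 1.05 in that many. Without mouse 2 the log2 fold change of Erbb2 was -1.26 (Benjamini-Hochberg adjusted p = 8.57e-13, edgeR).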

How the results depend on the processing

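The alternative thresholds (adjusted p of 0.05 and unadjusted p of 0.01) reuse the main fit, so there only the call could change. Of 197 log2 fold changes of the members under the alternatives, 196 had the same sign and call as with the main settings. None was reversed. The exception was Egfr with mice 1 to 3 only, at 0.40; its adjusted p ran from 4.57e-08 (DESeq2 with the replicate block) to 0.0487. The ranges were 3.97 to 4.18 for Egf, -2.91 to -2.83 for Areg, -2.38 to -2.27 for Hbegf, -3.16 to -2.69 for Ereg, 0.73 to 1.06 for Btc, 0.40 to 0.54 for Egfr, -1.38 to -1.26 for Erbb2, -0.78 to -0.68 for Erbb3 and -0.16 to -0.04 for Tgfa. Over all genes, the replicate block (the paired fit) called 4494 higher and 4574 lower, and for the members it changed no call. With mice 1 to 3 only, the genes called fell to 2546 higher and 2559 lower, and the signalling genes to 1 higher and 6 lower; fewer samples entered that fit. Among the neuregulins and Erbb4, 1 gene, Nrg4, was called higher with the replicate block, with that block without mouse 4 (chosen after seeing the data), with RLE normalization, with at least 10 counts in every sample, at an adjusted p of 0.05 and at an unadjusted p of 0.01; its adjusted p ran from 0.0075 to 0.4160 over the alternatives (0.0141 with DESeq2). Without a filter, 1 gene, Nrg1, was called lower. RLE and upper-quartile scaling moved the median of all genes by -3.93e-04 and -0.0126 on the log2 scale. Ereg has no value with at least 10 counts in every sample. Depth limits Ereg, Epgn, Rhbdl1 and the neuregulins, whose values rest on few reads.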
